A study of Mus musculus with 18 samples.

Results

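The genes described here are 36 mouse genes of the hypoxia-inducible factor (HIF) pathway. They comprise the oxygen-regulated HIF subunits, the oxygen sensors that turn those subunits over, and hypoxia-induced genes outside glycolysis. They were chosen by gene symbol, with earlier results of these data known, and all 36 were among the 21647 genes of the count table and the 13058 genes with enough reads to test. The study measured poly(A) RNA in cells labelled as embryonic aortic endothelial cells of wild-type (WT) mice and of Tg737orpk/orpk mice, here called orpk. The orpk mice carry an insertion mutation in Ift88, whose protein is needed to build the primary cilium, an antenna-like organelle through which endothelial cells sense flow. All cells were plated on gelatin, starved of serum for 24 h and then either kept static or exposed to laminar shear of 2 or 30 dyn/cm² for 48 h. This gave 6 groups of 3 libraries, 18 in all: WT static, WT 2, WT 30, orpk static, orpk 2 and orpk 30 dyn/cm². The labels name no strain, age beyond embryonic, animal or cell isolation behind a library, so the tests rest on the scatter among libraries alone, and that scatter may be technical. No group was kept at low oxygen. The 48 h apply to the sheared cells, and the sources used here record no time for the static ones. Time in culture therefore cannot be told apart from shear. Nor can any other difference between static and flowed culture, such as exchange of medium or the oxygen at the cells. Shear changes and shear responses below mean differences between these cultures.

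Library totals ran from 13626480 to 17387553 counts. Ift88 itself read between 12.8 and 17.4 CPM (counts scaled to library size) in the WT libraries and between 6.37 and 8.46 CPM in the orpk libraries, so the genotypes did not overlap. WT replicate 1 at 2 dyn/cm² and orpk replicate 2 at 2 dyn/cm² stood apart from their partners, with chi-square values per degree of freedom of 6.10 and 7.43, and of 3.28 and 3.66, against 1.42 and 1.55 for the other pair of each group. The endothelial label was checked against 12 markers. In every WT group Cdh5, Kdr, Tek, Tie1, Emcn, Erg and Cldn5 held 3 or fewer reads over the 3 libraries, and the 12 markers summed to between 25.4 and 53.5 CPM. In orpk cells they summed to between 583.5 and 888.5 CPM, of which most was Cd34 and Flt1, and Tie1 and Cldn5 held 3 or fewer reads in every orpk group. Fibroblast markers summed to between 711 and 1154 CPM in WT libraries and to between 20730 and 33010 CPM in orpk libraries. Smooth muscle markers summed to between 50.5 and 130.2 CPM in WT libraries and to between 936.5 and 3769 CPM in orpk libraries, while epithelial markers summed to between 352 and 571 CPM and between 157 and 300.6 CPM. The genotypes therefore differ in marker genes of several cell types, and the part of cell make-up in the genotype differences below was not tested. In these bulk libraries, fewer cells of a type and less RNA per cell cannot be told apart. Exons of 15 of the 36 genes, Bnip3, Car9, Fam162a, Ankrd37 and Bhlhe40 among them, overlap a gene on the other strand. Their counts are uncertain to that extent because the strand setting of the counting is not given in the sources used here. Exons of Hif1a and Jmjd6 also overlap a gene on the same strand, so their counts are uncertain under any such setting.

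HIF is a pair of proteins, an alpha subunit and the constant partner ARNT. In oxygenated cells prolyl hydroxylases mark the alpha subunit, the von Hippel-Lindau protein then targets it for destruction, and an asparagine hydroxylase blocks its coactivator binding. When oxygen is short the alpha subunit builds up, and the pair binds hypoxia response elements and raises genes for mitophagy, pH control, glycogen and lipid storage, chromatin and feedback on the pathway itself. The alpha subunits are set mainly at the protein level, so their RNA is not a measure of their activity.

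The hypoxia response element has the core ACGTG or GCGTG, and both were searched on both strands in the RefSeq promoter windows of 250 bases before to 50 bases after each gene start (GRCm38.p6). Of the 36 genes 30 had a window, and Bnip3l, Epas1, Ndrg1, Kdm4b, Bhlhe40 and Stc1 had none. At least 1 core was present in 24 of the 30 genes (80%), against 46.7% of all 27025 genes with a window and 66.9% of those genes tested here. A gene counts if any of its windows holds a core, and genes differ in their number of windows. By window, 71.4% of the 42 windows of the members held a core, against 43.8% of all windows and 60.7% of those of tested genes. At least 2 cores were present in 60.0% of the 30 genes, against 22.9% of all genes and 37.7% of tested genes. The palindrome CACGTG, which holds ACGTG on both strands and is also the E-box letters of other factors, was present in 26.7% against 8.09% and 11.6%. Car12, Gbe1, Gys1, Hif1an, Vhl and Vldlr had no core in these windows. A match is a description of letters and not a binding site. Stretches of 8 promoters are printed from 5′ to 3′ on the gene's strand, with the cores of either strand in capitals, because their genes carry the shear patterns described below. Each stretch was placed before the gene start to hold as many cores as possible. Its number of cores and their place in it therefore follow from that choice. Genes without a core could not be printed, although Vldlr and Gbe1 also carry such patterns. They lie at chr7:138909547-138909626 (Bnip3, minus strand), chr16:36071593-36071622 (Fam162a, minus), chr3:94932876-94932955 (Selenbp1, plus), chr8:124949296-124949325 (Egln1, minus), chr12:54204027-54204106 (Egln3, minus), chr8:45999929-46000008 (Ankrd37, minus), chr4:101419250-101419279 (Ak4, plus) and chr4:43506996-43507025 (Car9, plus).
Bnip3: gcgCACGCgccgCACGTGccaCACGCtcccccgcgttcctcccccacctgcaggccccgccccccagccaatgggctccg
Fam162a: cgtCACGCcggCACGCcccgcccaccccgc
Selenbp1: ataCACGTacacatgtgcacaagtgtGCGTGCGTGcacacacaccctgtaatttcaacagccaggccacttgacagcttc
Egln1: tgtACGTGcagcgcgcgcggagcgagtggc
Egln3: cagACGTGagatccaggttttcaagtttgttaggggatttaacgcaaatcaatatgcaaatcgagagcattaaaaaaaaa
Ankrd37: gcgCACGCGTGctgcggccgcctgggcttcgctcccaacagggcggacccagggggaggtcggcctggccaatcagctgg
Ak4: gtaGCGTGgagccggctcccggcttacgta
Car9: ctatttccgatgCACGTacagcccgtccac
The Bnip3 stretch holds 4 cores, 2 of them the strands of a CACGTG palindrome. The stretches of Fam162a and Ankrd37 hold 2 cores each, that of Selenbp1 holds 3, and those of Egln1, Egln3, Ak4 and Car9 hold 1 each.

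Most of the pathway was lower under flow than in static culture in both genotypes. Log2 fold changes below are from edgeR's quasi-likelihood fit, and a comparison of 2 groups sets 3 libraries against 3. The SE beside a change is worked back from the change and its F statistic, with the spread estimated from all 18 libraries. For genes of few reads this SE can be too small. A gene is said to have risen or fallen where the Benjamini-Hochberg adjusted p over all tested genes was under 0.05. In WT cells at 2 dyn/cm² 31 of the 36 genes fell, against 30.3% of all tested genes, and 2 rose, against 32.6%. The median change of the 36 was -1.56 on the log2 scale, against 0.01 over all tested genes, and 23 of them fell by at least 1, as did 4.01% of all tested genes. With the genes of at most 3 reads set at their counting ratio or left out, the WT medians were -1.70 at 2 and -1.67 at 30 dyn/cm², and those of the step from 2 to 30 dyn/cm² were -0.07 in WT and -0.10 in orpk cells. In WT cells at 30 dyn/cm² 31 fell (background 32.7%) and 2 rose (background 34.1%), with a median of -1.74. Egln2 and Hif1an were the members that rose in WT cells at either shear, and Epas1, Hif3a and Ak4 did not pass the test at either. Both WT comparisons share the static libraries.

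In orpk cells at 2 dyn/cm² 32 of the 36 genes fell (background 31.1%) and 1, Hif1an, rose (background 30.9%), with a median of -1.44. At 30 dyn/cm² 33 fell (background 33.3%) and 1, again Hif1an, rose (background 36.5%), with a median of -1.57 and with 26 genes lower by at least 1 (9.34% of all tested genes). Epas1, Fut11 and Kdm4c did not pass at 2 dyn/cm², and Epas1 and Fut11 did not at 30 dyn/cm². These comparisons share the static orpk libraries. Between genotypes, which share no library, 29 genes fell at 2 dyn/cm² in both, which is 93.5% of the WT list and 90.6% of the orpk list. For 30 dyn/cm² 30 fell in both, or 96.8% and 90.9%. With 31 to 33 of the 36 genes fallen in each genotype, a large overlap follows from the counts alone. The share of all tested genes that fell in both genotypes was not counted. Egln2 was the member called in opposite directions, higher in WT and lower in orpk cells at either shear.

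Summed over the 36 genes, the members took 6441, 6073 and 6049 CPM in the static WT libraries, 2125, 2095 and 2079 CPM at 2 dyn/cm² and 2090, 2057 and 2038 CPM at 30 dyn/cm². In orpk libraries the sums were 6125, 5987 and 6275 CPM in static culture, 2597, 2733 and 2625 CPM at 2 dyn/cm² and 2309, 2323 and 2337 CPM at 30 dyn/cm². The static sums of the genotypes overlapped, while at each shear every orpk sum was above every WT sum. These sums weight the abundant genes and have no test. The counts without WT replicate 1 at 2 dyn/cm² were 31 lower and 2 higher in WT cells, and without orpk replicate 2 they were 33 lower and 1 higher in orpk cells.

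**Figure D1:**
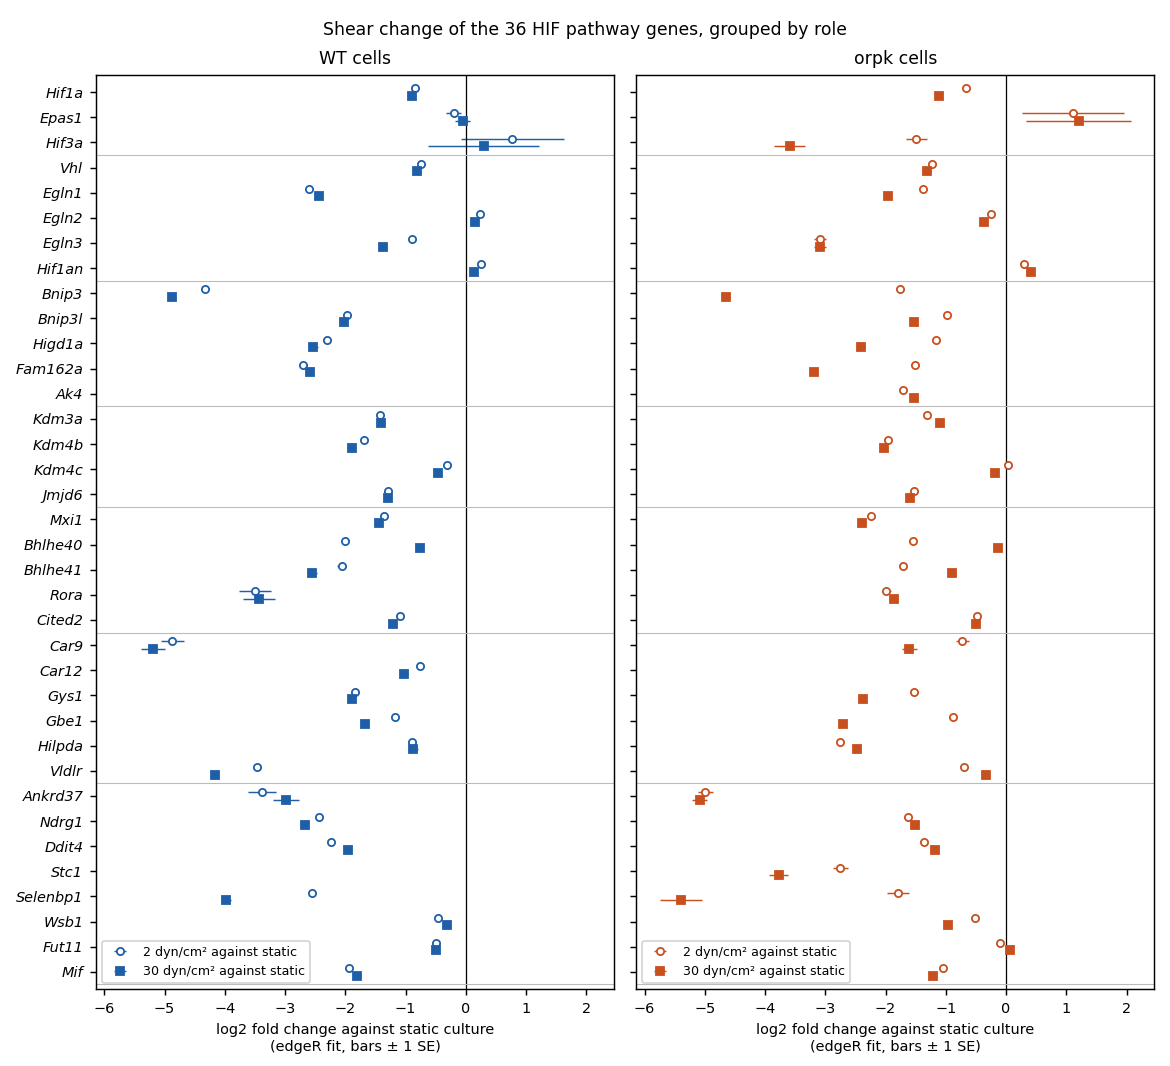
Log2 fold change of each gene against static culture (x axis, bars ± 1 SE) in WT and orpk cells, with open circles for 2 dyn/cm² and filled squares for 30 dyn/cm², grouped by role from HIF subunits at the top. Most points lie left of 0, and the circle and square lie far apart for Bnip3 in orpk cells (-1.77 and -4.65) but close in WT cells (-4.34 and -4.88). Values resting on a group of at most 3 reads (Ak4 and Stc1 in WT, Car12 in orpk) are left out.

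Hif1a (GRCm38 chromosome 12, 73901375 to 73947530, plus strand) encodes the HIF-1 alpha subunit and was the main alpha subunit RNA in every group. Per kb of exon it made up between 95.8% (WT, 30 dyn/cm²) and 99.7% (orpk, 30 dyn/cm²) of the alpha subunit RNA. WT libraries held 424, 350.1 and 388 CPM in static culture, 211, 220.3 and 215 CPM at 2 dyn/cm² and 207, 216 and 200.4 CPM at 30 dyn/cm². In orpk cells Hif1a read 649, 582 and 597 CPM in static culture, 393, 374 and 379 CPM at 2 dyn/cm² and 282, 285 and 281 CPM at 30 dyn/cm². Static libraries lay above all sheared libraries in both genotypes, and orpk libraries above WT libraries at each condition. Against static culture Hif1a fell in WT cells, with log2 fold changes of -0.85 ± 0.05 (SE, n = 3 per group) at 2 and -0.90 ± 0.05 at 30 dyn/cm². In orpk cells its changes were -0.67 ± 0.05 and -1.11 ± 0.05, and the edgeR adjusted p of the smallest of these changes was 3.88e-13. Between 2 and 30 dyn/cm² Hif1a fell further in orpk cells, with -0.43 ± 0.05 against -0.05 ± 0.05 in WT cells and a difference of -0.38 ± 0.07 (edgeR adjusted p = 3.42e-05).

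Epas1, which encodes the HIF-2 alpha subunit and is best known from endothelium, was a low WT transcript. It read 7.38, 10.1 and 9.08 CPM in static culture, 6.3, 8.53 and 8.3 CPM at 2 dyn/cm² and 7.61, 8.27 and 9.54 CPM at 30 dyn/cm² in WT cells. In orpk cells Epas1 read 0, 0.194 and 0.0732 CPM in static culture, 0.198, 0.18 and 0.248 CPM at 2 dyn/cm² and 0.3, 0.286 and 0.0775 CPM at 30 dyn/cm², which is 4 to 10 reads a group. No WT library overlapped an orpk library, and within either genotype the shear groups overlapped. Epas1 did not pass the shear test in WT cells, with -0.20 ± 0.12 at 2 and -0.06 ± 0.12 at 30 dyn/cm², although without WT static replicate 1 the change at 2 dyn/cm² was -0.31 with an edgeR adjusted p of 0.0415. In static culture the log2 difference of orpk against WT was -6.46 ± 0.33, and it was -7.65 without orpk static replicate 2, the library with the most Epas1 reads.

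Hif3a, whose protein lacks part of the activating region of the other alpha subunits and can act as a brake on them, showed the opposite genotype pattern. The WT libraries held 0.0653, 0 and 0.23 CPM in static culture, 0.272, 0 and 0.271 CPM at 2 dyn/cm² and 0.3, 0.0555 and 0.0551 CPM at 30 dyn/cm², which overlapped between all conditions. In orpk cells Hif3a read 8.27, 6.98 and 9.37 CPM in static culture, 2.38, 3.37 and 2.91 CPM at 2 dyn/cm² and 0.749, 0.786 and 0.465 CPM at 30 dyn/cm², and these groups did not overlap. It fell in orpk cells, with log2 fold changes of -1.49 ± 0.17 at 2 and -3.59 ± 0.25 at 30 dyn/cm². The step from 2 to 30 dyn/cm² was -2.10 ± 0.31 there (edgeR adjusted p = 2.73e-07).

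Of the 5 sensor and turnover genes, Vhl, Egln1 and Egln3 fell in both genotypes, Hif1an rose in both, and Egln2 differed in direction. Egln1 (chromosome 8, 124908587 to 124949324, minus strand) encodes PHD2, the prolyl hydroxylase that does most of the oxygen sensing in many cells and is itself a HIF target. WT libraries held 417, 405 and 374 CPM in static culture, 65.4, 61 and 69.1 CPM at 2 dyn/cm² and 74.7, 72.7 and 72.6 CPM at 30 dyn/cm². In orpk cells Egln1 read 365, 338 and 363 CPM in static culture, 126, 145 and 137 CPM at 2 dyn/cm² and 95.2, 90.7 and 87.6 CPM at 30 dyn/cm². Every static library lay above every sheared library, and at either shear the orpk libraries lay above the WT libraries. At 2 dyn/cm² Egln1 fell 6.11-fold in WT cells (-2.61 ± 0.05 as a log2 fold change) and 2.61-fold in orpk cells (-1.38 ± 0.05), a difference of 1.23 ± 0.07 (edgeR adjusted p = 1.51e-17). The changes at 30 dyn/cm² against static culture were -2.44 ± 0.05 in WT and -1.96 ± 0.05 in orpk cells. From 2 to 30 dyn/cm² Egln1 fell again in orpk cells (-0.58 ± 0.05). In WT cells it rose by 0.17 ± 0.05, a call that was lost without WT replicate 1 or 2 at 2 dyn/cm² (0.17 and 0.12) or replicate 1 at 30 dyn/cm² (0.16).

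Egln3 (chromosome 12, 54178981 to 54203860, minus strand) encodes PHD3, a HIF-induced prolyl hydroxylase thought to act in feedback. WT libraries held 346, 307 and 313 CPM in static culture, 177, 169 and 171 CPM at 2 dyn/cm² and 135, 116 and 121 CPM at 30 dyn/cm². In orpk cells Egln3 read 41, 42.3 and 44.1 CPM in static culture, 5.36, 5.23 and 4.39 CPM at 2 dyn/cm² and 5.17, 5.43 and 4.26 CPM at 30 dyn/cm². The highest orpk library, in static culture, lay below the lowest WT library of any condition. In static culture Egln3 was 7.58-fold lower in orpk than in WT cells (-2.92 ± 0.05, edgeR adjusted p = 5.73e-36). Its shear change was also larger there, with -3.09 ± 0.09 at 2 and -3.09 ± 0.10 at 30 dyn/cm² against -0.90 ± 0.04 and -1.38 ± 0.05 in WT cells. The differences between genotypes were -2.19 ± 0.11 and -1.72 ± 0.12.

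Egln2 encodes PHD1, a prolyl hydroxylase that hypoxia does not usually induce. WT libraries held 72.9, 71.9 and 69 CPM in static culture, 86.3, 86.7 and 79.1 CPM at 2 dyn/cm² and 78.1, 77.2 and 80.6 CPM at 30 dyn/cm². In orpk cells Egln2 read 80.2, 75.2 and 77.3 CPM in static culture, 64.8, 64.6 and 66.8 CPM at 2 dyn/cm² and 63.4, 58.9 and 58.8 CPM at 30 dyn/cm². The sheared WT libraries lay above the static ones and the sheared orpk libraries below the static ones. The changes were small, with 0.24 ± 0.04 and 0.14 ± 0.04 in WT cells and -0.25 ± 0.05 and -0.36 ± 0.05 in orpk cells, and their differences were -0.48 ± 0.06 and -0.51 ± 0.07 (edgeR adjusted p = 2.99e-08 and 1.4e-08). In static culture Egln2 was higher in orpk cells by 0.12 ± 0.05, a call lost without orpk static replicate 1 or WT static replicate 3 (0.10 each), and which turned to -0.09 with library totals as the scaling.

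Hif1an encodes FIH, the asparagine hydroxylase that blocks coactivator binding. WT libraries held 112, 117 and 112 CPM in static culture, 131, 144 and 133 CPM at 2 dyn/cm² and 128, 124 and 124 CPM at 30 dyn/cm². In orpk cells Hif1an read 82.7, 82.9 and 82.7 CPM in static culture, 102, 102 and 101 CPM at 2 dyn/cm² and 108, 111 and 112 CPM at 30 dyn/cm². Static libraries lay below all sheared libraries of the same genotype. Hif1an rose by 0.25 ± 0.04 and 0.14 ± 0.04 on the log2 scale in WT cells and by 0.30 ± 0.04 and 0.42 ± 0.04 in orpk cells.

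Vhl encodes the part of the ubiquitin ligase that recognises hydroxylated HIF alpha. WT libraries held 95.6, 95.1 and 89.8 CPM in static culture, 57.7, 55.4 and 53.2 CPM at 2 dyn/cm² and 56.4, 50.3 and 53.3 CPM at 30 dyn/cm². In orpk cells Vhl read 79, 77.7 and 90.7 CPM in static culture, 33.3, 35.5 and 36.8 CPM at 2 dyn/cm² and 32.7, 35.4 and 31.5 CPM at 30 dyn/cm². It fell to about the same level at either shear within a genotype, with -0.75 ± 0.05 and -0.81 ± 0.05 in WT cells and -1.22 ± 0.06 and -1.31 ± 0.06 in orpk cells. The differences, orpk minus WT, were -0.47 ± 0.08 at 2 and -0.50 ± 0.08 at 30 dyn/cm² (edgeR adjusted p = 2.59e-06 and 1.27e-06). Vhl has a named pseudogene, so its level is less certain.

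Per kb of exon, the make-up of the prolyl hydroxylase RNA differed between genotypes and moved with shear. In static WT cells Egln1 made up 43.1% ± 1.09 (SD, n = 3), Egln3 47.0% ± 1.27 and Egln2 9.90% ± 0.295. Under 30 dyn/cm² these WT shares were 21.5% ± 0.601, 49.0% ± 1.77 and 29.6% ± 1.29. In static orpk cells Egln1 made up 69.4% ± 0.523, Egln2 19.4% ± 0.367 and Egln3 11.2% ± 0.551. The orpk shares at 30 dyn/cm² were 52.0% ± 0.222, 44.2% ± 0.601 and 3.81% ± 0.406. Egln2 thus took a larger share under flow in both genotypes, with the smaller static share in WT cells.

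**Figure D2:**
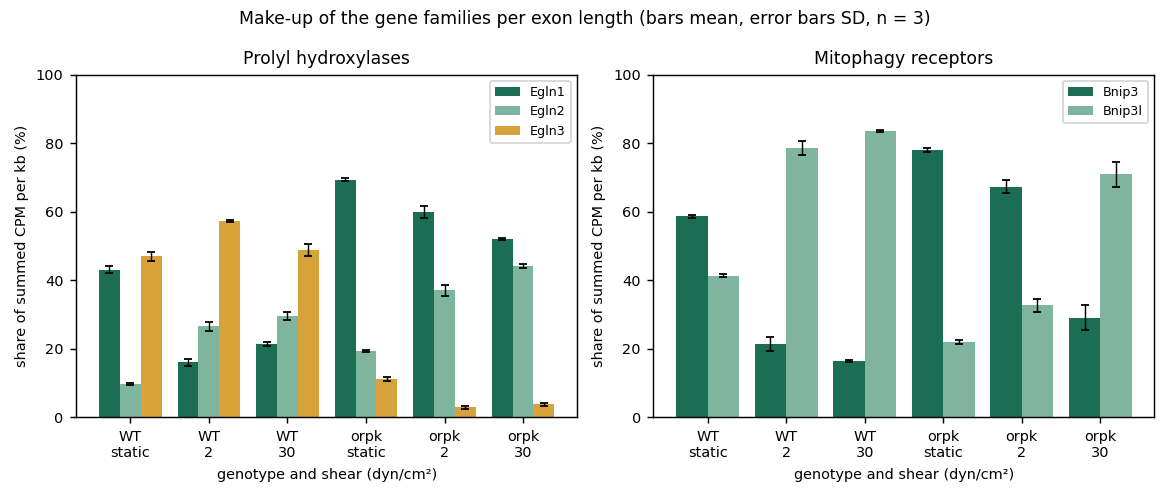
Share of each gene in the summed CPM per kb of its family (y axis, percent; bars are means and error bars SD over 3 libraries) for the prolyl hydroxylases and the mitophagy receptors in the 6 groups. Egln3 holds 47.0% to 57.4% in WT groups and 2.98% to 11.2% in orpk groups, and Bnip3 falls from 58.7% to 16.4% in WT and from 78.1% to 29.1% in orpk cells between static culture and 30 dyn/cm².

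The 5 mitochondrial genes fell in every shear comparison against static culture except Ak4 in WT cells, and 4 of them fell further from 2 to 30 dyn/cm² in orpk cells. Over all tested genes 30.3% to 33.3% fell in the comparisons against static culture and 31.5% in the orpk step. Bnip3 (chromosome 7, 138890836 to 138909519, minus strand) encodes a mitophagy receptor of the outer mitochondrial membrane and is a classical HIF target. WT libraries held 217, 204 and 195 CPM in static culture, 11.8, 8.41 and 10.1 CPM at 2 dyn/cm² and 7.25, 7.05 and 6.62 CPM at 30 dyn/cm². In orpk cells Bnip3 read 214, 214 and 219.9 CPM in static culture, 59.1, 68.1 and 62.6 CPM at 2 dyn/cm² and 9.21, 9.07 and 7.44 CPM at 30 dyn/cm². Static levels overlapped between genotypes, the orpk libraries at 2 dyn/cm² stood well above the WT ones, and at 30 dyn/cm² both genotypes were below 10 CPM. At 2 dyn/cm² Bnip3 fell 20.2-fold in WT cells (-4.34 ± 0.07) and 3.41-fold in orpk cells (-1.77 ± 0.05), a difference of 2.57 ± 0.09 (edgeR adjusted p = 2.8e-24). Under 30 dyn/cm² the changes were -4.88 ± 0.07 and -4.65 ± 0.07, and their difference of 0.23 ± 0.13 did not pass (edgeR adjusted p = 0.134, or 0.0499, at a difference of 0.32, without orpk replicate 3 at 30 dyn/cm²). The step from 2 to 30 dyn/cm² was -0.54 ± 0.11 in WT and -2.88 ± 0.08 in orpk cells.

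Fam162a (chromosome 16, 36043761 to 36071594, minus strand) encodes a mitochondrial protein induced by HIF-1. WT libraries held 339, 328 and 331 CPM in static culture, 54.4, 47.8 and 51.3 CPM at 2 dyn/cm² and 55.4, 55.5 and 55.2 CPM at 30 dyn/cm². In orpk cells Fam162a read 589, 576 and 626 CPM in static culture, 197, 223 and 206 CPM at 2 dyn/cm² and 65.1, 64.7 and 67.6 CPM at 30 dyn/cm². Sheared WT libraries lay close together, while the 3 orpk groups were widely apart. The log2 fold changes against static culture were -2.70 ± 0.05 and -2.59 ± 0.05 in WT cells and -1.51 ± 0.04 and -3.18 ± 0.05 in orpk cells. The step from 2 to 30 dyn/cm² differed by -1.78 ± 0.07 between genotypes (edgeR adjusted p = 1.5e-23).

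Higd1a encodes an inner mitochondrial membrane protein that binds respiratory chain complexes. WT libraries held 62.1, 62.3 and 60.1 CPM in static culture, 13.3, 11.7 and 12.1 CPM at 2 dyn/cm² and 11, 9.88 and 11 CPM at 30 dyn/cm². In orpk cells Higd1a read 87.4, 96.1 and 97.9 CPM in static culture, 37.2, 45.6 and 43.3 CPM at 2 dyn/cm² and 18.5, 16.8 and 17.7 CPM at 30 dyn/cm². From 2 to 30 dyn/cm² the WT step of -0.22 ± 0.09 did not pass the test and the orpk step of -1.25 ± 0.07 did. The difference of the steps was -1.03 ± 0.12 (edgeR adjusted p = 2.22e-09).

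Bnip3l encodes NIX, the mitophagy receptor related to Bnip3. WT libraries held 262, 240.4 and 237 CPM in static culture, 66, 59.3 and 62.6 CPM at 2 dyn/cm² and 63, 59.6 and 59 CPM at 30 dyn/cm². In orpk cells Bnip3l read 101, 99.5 and 109 CPM in static culture, 53.8, 52.3 and 50.6 CPM at 2 dyn/cm² and 35.7, 33.2 and 38 CPM at 30 dyn/cm². It fell less in orpk cells, with -0.98 ± 0.05 and -1.53 ± 0.06 against -1.97 ± 0.05 and -2.03 ± 0.05 in WT cells, and the difference at 2 dyn/cm² was 0.99 ± 0.07 (edgeR adjusted p = 1.19e-15). Per kb, Bnip3 made up 58.7% ± 0.400 (SD, n = 3) of the pair in static WT cells and 21.5% ± 1.94 at 2 dyn/cm². In orpk cells these shares were 78.1% ± 0.565 and 67.3% ± 1.92. Bnip3l has a named pseudogene, so its level is less certain.

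Ak4 encodes an adenylate kinase of the mitochondrial matrix. In WT cells it held 2, 2 and 0 reads over the 3 libraries of the static, 2 and 30 dyn/cm² groups. In orpk cells Ak4 read 69.5, 69 and 75.4 CPM in static culture, 21.2, 22.1 and 21.9 CPM at 2 dyn/cm² and 26.7, 22 and 25.1 CPM at 30 dyn/cm². The orpk to WT ratio was 1674 in static culture, with a 95% exact counting interval of 463 to 13830. The ratio at 2 dyn/cm² was 582 (161 to 4809), and at 30 dyn/cm² Ak4 was at least 433-fold higher in orpk cells, taking 3 reads in the group as the floor. Ak4 fell in orpk cells, with log2 fold changes of -1.71 ± 0.07 at 2 and -1.54 ± 0.07 at 30 dyn/cm². From 2 to 30 dyn/cm² Ak4 was called higher in orpk cells (0.18). That call was lost with DESeq2 (0.16), RLE size factors (0.16) and library totals (0.06). It was also lost in some fits without a single library, such as orpk replicate 1 at 30 dyn/cm² (0.11).

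**Figure D3:**
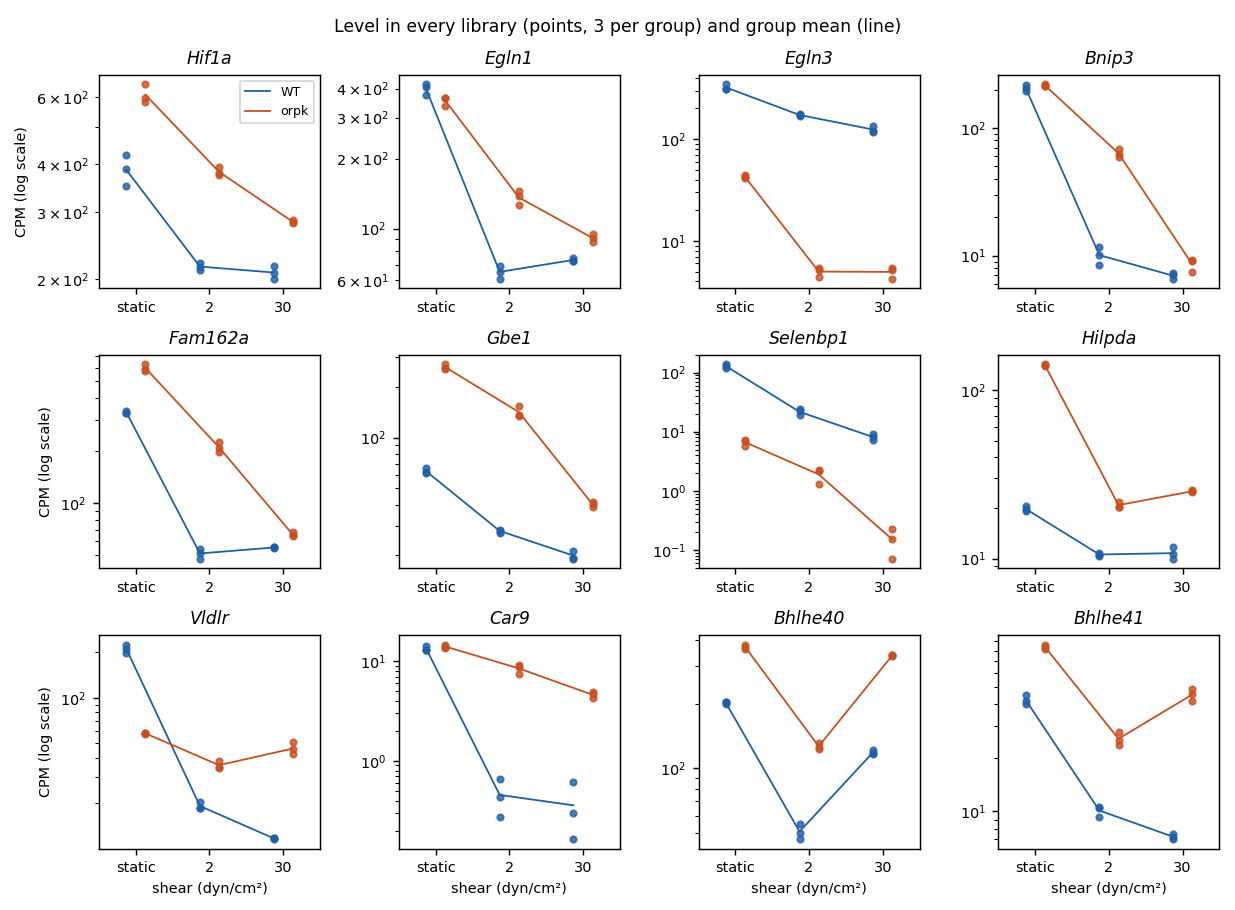
CPM on a log axis in every library (points, 3 per group) with the group means joined by lines, for 12 of the genes in WT (blue) and orpk (orange) cells by shear. The orpk lines of Bnip3, Fam162a and Gbe1 go on falling to 30 dyn/cm², for Bnip3 from 63.3 to 8.58 CPM, while its WT line goes from 10.1 to 6.97 CPM.

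Of the 4 genes grouped here as histone and protein demethylases and hydroxylases, Kdm3a, Kdm4b and Jmjd6 fell at either shear in both genotypes. The enzymes of these 4 genes use oxygen to demethylate histones or hydroxylate proteins. Hif1an, given above with the sensors, also encodes an oxygen-using hydroxylase, and it rose at either shear in both genotypes. Between 30.3% and 33.3% of all tested genes fell in these comparisons. Kdm3a, an H3K9 demethylase, read 244, 239 and 231 CPM in static culture, 86.6, 88.4 and 90.2 CPM at 2 dyn/cm² and 92.9, 90.4 and 86.1 CPM at 30 dyn/cm² in WT libraries. In orpk cells Kdm3a read 234, 236 and 246 CPM in static culture, 96.1, 97.7 and 94.1 CPM at 2 dyn/cm² and 113, 115 and 107 CPM at 30 dyn/cm². Every static library lay above 230 CPM and every sheared library below 116 CPM. The log2 fold changes at 2 dyn/cm² were -1.43 ± 0.04 in WT and -1.31 ± 0.04 in orpk cells, and their difference of 0.12 ± 0.05 did not pass (edgeR adjusted p = 0.0756), but did without static replicate 3 of either genotype (0.14 in each case). Kdm3a was higher in orpk cells at 2 dyn/cm² by 0.12 ± 0.04, which turned to -0.10 with library totals as the scaling.

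Kdm4b, another H3K9 demethylase, read 174, 172 and 168 CPM in static culture, 51.1, 54.3 and 52.7 CPM at 2 dyn/cm² and 46.6, 44.2 and 47 CPM at 30 dyn/cm² in WT libraries. In orpk cells Kdm4b read 173, 168 and 169 CPM in static culture, 41.4, 47.6 and 41.2 CPM at 2 dyn/cm² and 40.1, 41.2 and 44.4 CPM at 30 dyn/cm². The static groups overlapped between genotypes, and the changes were -1.70 ± 0.04 and -1.90 ± 0.05 in WT cells and -1.97 ± 0.05 and -2.02 ± 0.05 in orpk cells. The difference passed at 2 dyn/cm² (-0.27 ± 0.07, edgeR adjusted p = 0.000665) and not at 30 dyn/cm² (-0.12 ± 0.07, edgeR adjusted p = 0.126), although the latter passed with the compared groups alone (-0.16) and with library totals (-0.22). Jmjd6, a lysyl hydroxylase, read 193, 175 and 184 CPM in static culture, 79.7, 73.6 and 72.7 CPM at 2 dyn/cm² and 74.8, 76.3 and 75.1 CPM at 30 dyn/cm² in WT libraries. In orpk cells Jmjd6 read 190.5, 190.2 and 202 CPM in static culture, 65.7, 65.9 and 70.2 CPM at 2 dyn/cm² and 61.9, 62.7 and 67.3 CPM at 30 dyn/cm². Its changes were -1.29 ± 0.04 and -1.29 ± 0.04 in WT cells and -1.53 ± 0.04 and -1.60 ± 0.05 in orpk cells, with differences of -0.24 ± 0.06 and -0.32 ± 0.06 that both passed.

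Kdm4c, a paralog of Kdm4b, read 37.7, 36 and 34.5 CPM in static culture, 26.6, 29.1 and 31.3 CPM at 2 dyn/cm² and 26.7, 27 and 24.6 CPM at 30 dyn/cm² in WT libraries. In orpk cells Kdm4c read 66.4, 64.1 and 69.3 CPM in static culture, 67.4, 69.8 and 67.4 CPM at 2 dyn/cm² and 58, 58.7 and 58.4 CPM at 30 dyn/cm². It fell in WT cells, with log2 fold changes of -0.32 ± 0.06 and -0.47 ± 0.06. In orpk cells its change of 0.04 ± 0.05 at 2 dyn/cm² did not pass the test, but was called higher with library totals as the scaling (0.14), and that of -0.19 ± 0.05 at 30 dyn/cm² did pass. Per kb, Kdm4b made up 85.0% ± 0.318 (SD, n = 3) of the pair in static WT cells and 43.0% ± 1.51 in orpk cells at 2 dyn/cm².

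All 5 transcription regulators fell at either shear in both genotypes, against 30.3% to 33.3% of all tested genes. Bhlhe40 and Bhlhe41 encode related repressors of the circadian clock and of differentiation genes, and both rose from 2 to 30 dyn/cm² in orpk cells. Bhlhe40 (chromosome 6, 108660629 to 108666925, plus strand) read 204, 204 and 200.2 CPM in static culture, 54.9, 46.8 and 50.0 CPM at 2 dyn/cm² and 117, 123 and 117 CPM at 30 dyn/cm² in WT libraries. In orpk cells Bhlhe40 read 361, 371 and 379.9 CPM in static culture, 131, 123 and 126 CPM at 2 dyn/cm² and 335, 338 and 340.4 CPM at 30 dyn/cm². In both genotypes the lowest values were at 2 dyn/cm², and no library at 30 dyn/cm² overlapped those at 2 dyn/cm² or in static culture. The rise from 2 to 30 dyn/cm² was 1.23 ± 0.04 in WT and 1.41 ± 0.04 in orpk cells (edgeR adjusted p = 1.47e-24 and 1.35e-29), which left Bhlhe40 at -0.77 ± 0.04 and -0.13 ± 0.04 against static culture.

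Bhlhe41 read 44.8, 40.0 and 41.9 CPM in static culture, 10.6, 10.5 and 9.28 CPM at 2 dyn/cm² and 7.01, 7.43 and 7.17 CPM at 30 dyn/cm² in WT libraries. In orpk cells Bhlhe41 read 81.2, 84.3 and 86.5 CPM in static culture, 27.8, 25.3 and 23.6 CPM at 2 dyn/cm² and 45.6, 41.7 and 48.5 CPM at 30 dyn/cm². From 2 to 30 dyn/cm² it fell in WT cells (-0.49 ± 0.10) and rose in orpk cells (0.82 ± 0.07), without overlap of libraries in either case. The difference was 1.31 ± 0.12 (edgeR adjusted p = 5.53e-12).

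Mxi1, a MAX partner that opposes MYC, read 132, 121 and 125 CPM in static culture, 52.2, 49.9 and 46.1 CPM at 2 dyn/cm² and 46, 46 and 47.1 CPM at 30 dyn/cm² in WT libraries. In orpk cells Mxi1 read 99.8, 96.3 and 103 CPM in static culture, 19, 22.3 and 21.7 CPM at 2 dyn/cm² and 18.1, 19.1 and 19.6 CPM at 30 dyn/cm². Its fall was larger in orpk cells, with -2.24 ± 0.06 against -1.35 ± 0.05 at 2 dyn/cm² and a difference of -0.89 ± 0.08 (edgeR adjusted p = 5.25e-13). Cited2, which competes with HIF-1 alpha for the coactivators CBP and p300, read 328, 286 and 315 CPM in static culture, 148, 153 and 137 CPM at 2 dyn/cm² and 132, 137 and 135 CPM at 30 dyn/cm² in WT libraries. In orpk cells Cited2 read 70.2, 67.5 and 69.3 CPM in static culture, 48.6, 50.0 and 49.6 CPM at 2 dyn/cm² and 49.9, 50.0 and 46.3 CPM at 30 dyn/cm². The fall was smaller in orpk cells, which held less Cited2 in static culture, with -0.48 ± 0.05 against -1.09 ± 0.04 at 2 dyn/cm² and a difference of 0.61 ± 0.07 (edgeR adjusted p = 5.2e-10).

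Rora, a nuclear receptor of the circadian clock, read 7.05, 5.18 and 4.66 CPM in static culture, 0.272, 0.901 and 0.326 CPM at 2 dyn/cm² and 0.659, 0.444 and 0.441 CPM at 30 dyn/cm² in WT libraries. In orpk cells Rora read 86.8, 81.2 and 81.3 CPM in static culture, 22.8, 21.1 and 19.1 CPM at 2 dyn/cm² and 20.6, 24.6 and 23 CPM at 30 dyn/cm². Every orpk library lay above every WT library. The change at 2 dyn/cm² was -3.50 ± 0.26 in WT cells, or -4.19 without WT replicate 2 at 2 dyn/cm², and -1.99 ± 0.07 in orpk cells. The differences between genotypes were 1.52 ± 0.31 at 2 dyn/cm², or 2.20 without that library, and 1.57 ± 0.31 at 30 dyn/cm².

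The genes for pH, glycogen and lipid handling all fell at either shear in both genotypes, against 30.3% to 33.3% of all tested genes. Car9 (chromosome 4, 43506966 to 43513729, plus strand) encodes a cell-surface carbonic anhydrase that is among the most used markers of hypoxia. WT libraries held 14.3, 12.9 and 12.9 CPM in static culture, 0.272, 0.661 and 0.434 CPM at 2 dyn/cm² and 0.3, 0.61 and 0.165 CPM at 30 dyn/cm². In orpk cells Car9 read 13.4, 14.7 and 14 CPM in static culture, 7.41, 9.2 and 8.73 CPM at 2 dyn/cm² and 4.27, 4.64 and 4.88 CPM at 30 dyn/cm². The static libraries overlapped between genotypes, and every sheared WT library lay below 1 CPM while every sheared orpk library lay above 4 CPM. Car9 fell 29.3-fold at 2 dyn/cm² in WT cells (-4.87 ± 0.19) and 1.66-fold in orpk cells (-0.73 ± 0.11), a difference of 4.14 ± 0.24 (edgeR adjusted p = 4.99e-18). The changes at 30 dyn/cm² were -5.19 ± 0.20, or -5.81 without WT replicate 2 at 30 dyn/cm², and -1.61 ± 0.12. Their difference was 3.58 ± 0.29, or 4.20 without that library.

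Car12, the related carbonic anhydrase, was higher in WT cells. It read 56.1, 51.5 and 49.6 CPM in static culture, 28.9, 32.4 and 30.9 CPM at 2 dyn/cm² and 26.6, 25.7 and 24.5 CPM at 30 dyn/cm² in WT libraries, and its WT changes were -0.77 ± 0.06 and -1.03 ± 0.07. In orpk cells Car12 held 33, 2 and 3 reads over the 3 libraries of the static, 2 and 30 dyn/cm² groups. The static level was 18.3 times that at 2 dyn/cm² (95% exact counting interval 4.68 to 158) and 10.3 times that at 30 dyn/cm² (3.22 to 52.3). The WT level was 735 times the orpk level at 2 dyn/cm² (203 to 6074) and 343 times at 30 dyn/cm² (117 to 1665).

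Vldlr (chromosome 19, 27216484 to 27254231, plus strand) encodes the very low density lipoprotein receptor. WT libraries held 225, 211 and 199 CPM in static culture, 18.5, 20.3 and 18.7 CPM at 2 dyn/cm² and 11.6, 11.8 and 11.7 CPM at 30 dyn/cm². In orpk cells Vldlr read 58.3, 58.3 and 57.5 CPM in static culture, 34.7, 38.2 and 34.4 CPM at 2 dyn/cm² and 45.5, 42.1 and 50.5 CPM at 30 dyn/cm². The static WT libraries were the highest and the sheared WT libraries the lowest, so that the genotype order turned over with flow. The log2 fold changes were -3.46 ± 0.06 and -4.17 ± 0.06 in WT cells and -0.70 ± 0.06 and -0.34 ± 0.06 in orpk cells. Their difference at 30 dyn/cm², 3.83 ± 0.09 (edgeR adjusted p = 3.57e-32), corresponds to an 18-fold fall in WT and a 1.26-fold fall in orpk cells. From 2 to 30 dyn/cm² Vldlr fell in WT cells (-0.71 ± 0.08) and rose in orpk cells (0.36 ± 0.06).

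Hilpda encodes a lipid droplet protein that slows lipolysis. WT libraries held 19.2, 20.4 and 19.5 CPM in static culture, 10.5, 10.4 and 10.8 CPM at 2 dyn/cm² and 11.7, 9.99 and 10.6 CPM at 30 dyn/cm². In orpk cells Hilpda read 139.8, 139 and 142 CPM in static culture, 21.7, 20.3 and 20.2 CPM at 2 dyn/cm² and 25.4, 24.7 and 25 CPM at 30 dyn/cm². In static culture it was 7.11-fold higher in orpk cells, and at 2 dyn/cm² 1.96-fold higher. It fell further in orpk cells, with -2.75 ± 0.05 and -2.48 ± 0.05 against -0.89 ± 0.07 and -0.87 ± 0.07 in WT cells, and the differences were -1.86 ± 0.09 and -1.61 ± 0.09.

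Gbe1 and Gys1 encode the glycogen branching enzyme and the glycogen synthase of most tissues. Gbe1 read 65.9, 61.6 and 62.1 CPM in static culture, 28, 28.4 and 27.2 CPM at 2 dyn/cm² and 21.3, 19.4 and 19.1 CPM at 30 dyn/cm² in WT libraries. In orpk cells Gbe1 read 255, 260.0 and 272 CPM in static culture, 135, 154 and 136 CPM at 2 dyn/cm² and 40.5, 41.3 and 38.8 CPM at 30 dyn/cm². All orpk libraries up to 2 dyn/cm² lay above the highest WT library, and those at 30 dyn/cm² lay between the static and the sheared WT libraries. The step from 2 to 30 dyn/cm² was -0.49 ± 0.07 in WT and -1.82 ± 0.05 in orpk cells, a difference of -1.33 ± 0.09 (edgeR adjusted p = 1.74e-16). Gys1 read 339, 338 and 334 CPM in static culture, 92.9, 95.5 and 94.3 CPM at 2 dyn/cm² and 90.8, 90.1 and 90.5 CPM at 30 dyn/cm² in WT libraries. In orpk cells Gys1 read 329, 323 and 329 CPM in static culture, 108, 120.4 and 112 CPM at 2 dyn/cm² and 60.4, 64.4 and 63.4 CPM at 30 dyn/cm². Its step was -0.06 ± 0.04 in WT cells, which did not pass, and -0.86 ± 0.04 in orpk cells, a difference of -0.80 ± 0.06 (edgeR adjusted p = 5.23e-15).

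Among the remaining stress and secreted targets, Ankrd37 (chromosome 8, 45996902 to 46005707, minus strand), an ankyrin-repeat gene known as a HIF target, had the largest fitted fold change of the 36 in orpk cells at 2 dyn/cm². WT libraries held 5.22, 4.27 and 4.25 CPM in static culture, 0.38, 0.36 and 0.543 CPM at 2 dyn/cm² and 0.659, 0.444 and 0.606 CPM at 30 dyn/cm². In orpk cells Ankrd37 read 35.6, 37.5 and 39.2 CPM in static culture, 1.52, 1.02 and 0.99 CPM at 2 dyn/cm² and 1.2, 1.00 and 1.09 CPM at 30 dyn/cm². The static orpk libraries stood far above all others. Its log2 fold changes were -4.99 ± 0.12 and -5.09 ± 0.13 in orpk cells, against -3.39 ± 0.23 and -2.99 ± 0.22 in WT cells. The differences were -1.60 ± 0.38 and -2.09 ± 0.36.

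Ndrg1 encodes a stress-responsive protein named as downstream of N-myc. WT libraries held 923, 875 and 835 CPM in static culture, 166, 161 and 159.8 CPM at 2 dyn/cm² and 145, 131 and 136 CPM at 30 dyn/cm². In orpk cells Ndrg1 read 897, 880.2 and 914 CPM in static culture, 279.8, 311 and 281 CPM at 2 dyn/cm² and 305, 314 and 322 CPM at 30 dyn/cm². The genotypes overlapped in static culture and not under shear, with changes of -2.44 ± 0.04 and -2.68 ± 0.04 in WT cells and -1.62 ± 0.04 and -1.52 ± 0.04 in orpk cells. Ddit4 encodes REDD1, an inhibitor of mTORC1. WT libraries held 521, 464 and 496 CPM in static culture, 109.5, 97.4 and 106 CPM at 2 dyn/cm² and 126, 126 and 131 CPM at 30 dyn/cm². In orpk cells Ddit4 read 169, 160.4 and 155 CPM in static culture, 61.4, 63.5 and 63.5 CPM at 2 dyn/cm² and 69.9, 72.9 and 70.1 CPM at 30 dyn/cm². It fell in both, with -2.24 ± 0.04 in WT and -1.36 ± 0.05 in orpk cells at 2 dyn/cm².

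Selenbp1 encodes a selenium-binding protein with methanethiol oxidase activity. WT libraries held 137, 127 and 121 CPM in static culture, 23.9, 18.9 and 22.2 CPM at 2 dyn/cm² and 9.05, 7.99 and 7.28 CPM at 30 dyn/cm². In orpk cells Selenbp1 read 7.06, 5.68 and 7.17 CPM in static culture, 2.18, 2.23 and 1.3 CPM at 2 dyn/cm² and 0.225, 0.0714 and 0.155 CPM at 30 dyn/cm². Selenbp1 fell from 2 to 30 dyn/cm² in both genotypes, with steps of -1.43 ± 0.10 and -3.60 ± 0.48 and no overlap of libraries. The difference of the steps was -2.18 ± 0.56 (edgeR adjusted p = 0.00137). The orpk group at 30 dyn/cm² held 6 reads. Against static culture the difference at 30 dyn/cm² was -1.41 ± 0.56, a call lost without orpk replicate 2 (-1.07) or 3 (-1.44) at that shear.

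Stc1 encodes stanniocalcin-1, a secreted glycoprotein. WT cells held 26, 1 and 0 reads over the 3 libraries of the static, 2 and 30 dyn/cm² groups. In orpk cells Stc1 read 23.7, 19.9 and 23.2 CPM in static culture, 2.91, 4.27 and 2.66 CPM at 2 dyn/cm² and 1.65, 1.86 and 1.32 CPM at 30 dyn/cm². The WT fall was 29.6-fold at 2 dyn/cm², with a 95% exact counting interval of 4.86 to 1213, and at least 9.74-fold at 30 dyn/cm² taking 3 reads in the group as the floor. In orpk cells the log2 fold changes were -2.75 ± 0.12 and -3.78 ± 0.15. The orpk level was 176 times the WT level at 2 dyn/cm² (31.2 to 7010).

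Mif encodes a cytokine that is stored in cells. WT libraries held 121, 115 and 126 CPM in static culture, 32.8, 29.2 and 32.3 CPM at 2 dyn/cm² and 36.1, 34.3 and 33.1 CPM at 30 dyn/cm². In orpk cells Mif read 70.6, 66.4 and 76.4 CPM in static culture, 33.1, 35.8 and 34 CPM at 2 dyn/cm² and 31.1, 29.2 and 31.5 CPM at 30 dyn/cm². It fell in both, with log2 fold changes of -1.94 ± 0.05 in WT and -1.05 ± 0.06 in orpk cells at 2 dyn/cm², and its named pseudogenes make its level less certain. Wsb1, a ubiquitin ligase subunit, and Fut11, a fucosyltransferase family member, changed by less than 1 in every comparison. Wsb1 group means ran from 186 CPM (orpk, 30 dyn/cm²) to 363 CPM (orpk, static), and Fut11 means from 29.6 CPM (WT, 2 dyn/cm²) to 54.6 CPM (orpk, 30 dyn/cm²). Fut11 fell in WT cells, with -0.50 ± 0.06 and -0.50 ± 0.06, while its orpk changes of -0.11 ± 0.05 and 0.06 ± 0.05 did not pass. Fut11 did pass at 2 dyn/cm² in orpk cells without orpk replicate 2 of that shear or of static culture (-0.14 and -0.15).

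From 2 to 30 dyn/cm² fewer members moved in WT than in orpk cells, as was so for all genes. In WT cells 11 members fell (background 17.2%) and 4 rose (background 15.9%), with a median of -0.09. In orpk cells 16 fell (background 31.5%) and 10 rose (background 32.1%), also with a median of -0.09, and 7 fell by at least 1 against 1 in WT cells. Over all tested genes 6.57% fell by at least 1 in the orpk step and 1.39% in the WT step. Both genotypes shared 3 of the falls and 2 of the rises, and 6 members were called in opposite directions. The same counts over all tested genes were not made, so these counts do not set the members apart from other genes. Bhlhe41, Vldlr, Hif1an and Ndrg1 fell in WT and rose in orpk cells, and Egln1 and Wsb1 did the reverse. Of these, the WT call of Hif1an (-0.11 ± 0.04) was lost without WT replicate 2 at 2 dyn/cm² (-0.07) or WT replicate 2 or 3 at 30 dyn/cm² (-0.11 each), and with the compared groups alone (-0.11). The orpk call of Hif1an (0.12 ± 0.04) was lost with library totals (0.001) and with DESeq2 (0.10). The WT call of Egln1 was lost without WT replicate 1 or 2 at 2 dyn/cm² (0.17 and 0.12) or WT replicate 1 at 30 dyn/cm² (0.16). The orpk call of Ndrg1 (0.11 ± 0.04) was lost without orpk replicate 1 or 3 at 2 dyn/cm² (0.08 each) or replicate 3 at 30 dyn/cm² (0.09) and with DESeq2 (0.09), and turned to -0.01 with library totals as the scaling. Under that scaling 21 members fell and 5 rose in orpk cells and 14 fell and 4 rose in WT cells.

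The difference of the step, orpk minus WT, was negative for 11 members (background 21.5%) and positive for 8 (background 25%). Over all tested genes 3.59% had a called difference of -1 or below and 2.5% of 1 or above. It was at least 1 in size for Bnip3 (-2.34), Selenbp1 (-2.18), Fam162a (-1.78), Gbe1 (-1.33) and Higd1a (-1.03), which fell further in orpk cells, and for Bhlhe41 (1.31) and Vldlr (1.07), which did the opposite. Of the 5 mitochondrial genes, 4 had a negative difference, and Ak4 did not pass.

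**Figure D4:**
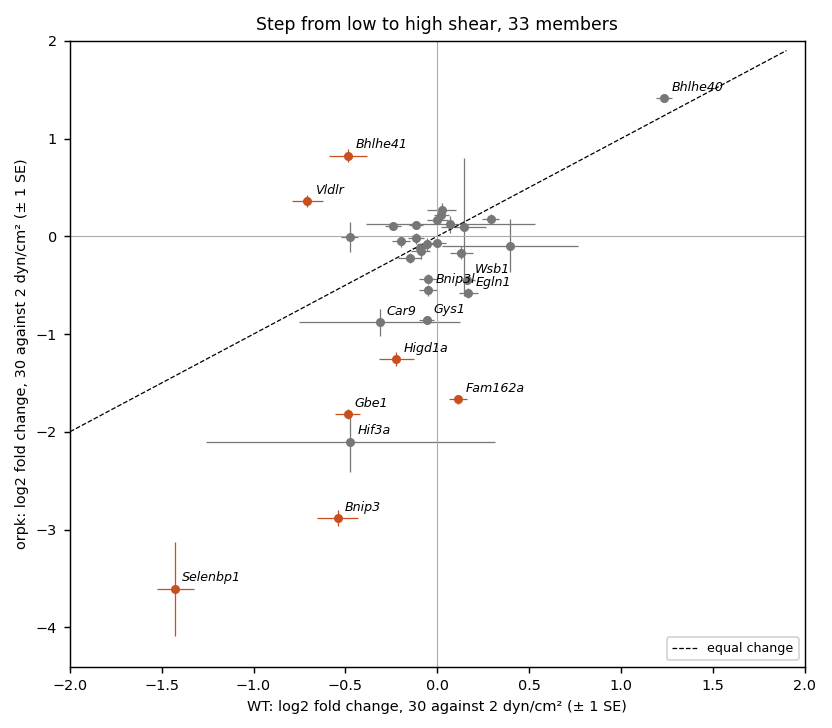
Log2 fold change from 2 to 30 dyn/cm² in WT cells (x axis) and orpk cells (y axis), bars ± 1 SE, for the 33 genes with more than 3 reads in every group; the dashed line marks equal change and the axes differ in scale. Orange points have a difference of at least 1 that passed the test, from Selenbp1 (-1.43 and -3.60) and Bnip3 (-0.54 and -2.88) below the line to Bhlhe41 (-0.49 and 0.82) and Vldlr (-0.71 and 0.36) above it.

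For the response to 2 dyn/cm² against static culture, the difference orpk minus WT was positive, that is a smaller fall in orpk cells for genes that fell, for 20 members (background 27.1%) and negative for 10 (background 25.4%). For 30 dyn/cm² it was positive for 15 (background 30.6%) and negative for 15 (background 26.9%). Called differences of at least 1 made up 4.45% (positive) and 3.38% (negative) of all tested genes at 2 dyn/cm² and 6.17% and 6.29% at 30 dyn/cm². At 2 dyn/cm² the positive differences of at least 1 were those of Car9 (4.14), Vldlr (2.77), Bnip3 (2.57), Rora (1.52), Egln1 (1.23), Fam162a (1.18) and Higd1a (1.15). The negative ones were those of Car12, Hif3a, Egln3 (-2.19), Hilpda (-1.86) and Ankrd37 (-1.60). At 30 dyn/cm² Bnip3, Higd1a and Fam162a were no longer among the positive ones, and Vldlr (3.83), Car9 (3.58), Bhlhe41 (1.66), Rora (1.57) and Ndrg1 (1.16) were. The negative ones at 30 dyn/cm² were those of Hif3a, Car12, Ankrd37 (-2.09), Egln3 (-1.72), Hilpda (-1.61), Selenbp1 (-1.41) and Gbe1 (-1.04). The calls of Hif3a and Car12 rest on groups of 2 to 10 reads. That of Hif3a was -2.26 at 2 dyn/cm² and was lost without WT replicate 1 (-1.89) or 3 (-1.89) at that shear or WT static replicate 1 (-2.03) or 2 (-1.77). The value at 30 dyn/cm² was -3.89 and was lost without WT replicate 1 at that shear (-2.74). The Car12 difference of -2.19 at 30 dyn/cm² was lost without orpk replicate 2 at that shear (-1.63) and was -5.59 without replicate 1. These comparisons share their static libraries.

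Between genotypes in static culture 13 members were lower in orpk cells (background 43.4%) and 16 higher (background 44.4%), with a median of 0.07 against 0.01 over all tested genes. At 2 dyn/cm² 13 were lower (background 42.9%) and 22 higher (background 44.6%), with a median of 0.77 against 0.02 over all tested genes. At 30 dyn/cm² 16 were lower (background 42%) and 20 higher (background 44.9%), with a median of 0.31 against 0.04. With library totals as the scaling the splits were 19 lower and 14 higher in static culture, 14 and 20 at 2 dyn/cm², and 16 and 15 at 30 dyn/cm².

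The 7 members that did not differ beyond the test in static culture were Bnip3, Car9, Ndrg1, Kdm3a, Kdm4b, Gys1 and Jmjd6. Bnip3 had a difference of 0.07 ± 0.05 there and Jmjd6 of 0.08 ± 0.04. Both passed without WT static replicate 1 (0.11 each), with RLE size factors (0.10 and 0.11) and with the compared groups alone (0.09 and 0.10), and Jmjd6 also with DESeq2 (0.11). With library totals as the scaling Bnip3 and Jmjd6 turned negative (-0.14 each), as did Kdm3a (-0.21) and Ndrg1 (-0.18), and Kdm4b (-0.23) and Gys1 (-0.26) were called lower in orpk cells. The largest fitted differences in static culture were those of Ak4, Hif3a (6.16 ± 0.35, or 7.61 without WT static replicate 3) and Stc1 (5.31 ± 0.18), higher in orpk cells, and of Epas1, Car12 (-6.08 ± 0.14) and Selenbp1 (-4.28 ± 0.09), higher in WT cells. Between the sheared groups, Fam162a was 4.08-fold higher in orpk cells at 2 dyn/cm² and 1.19-fold higher at 30 dyn/cm², the latter turning to -0.07 on the log2 scale with library totals. Egln1 was 2.09-fold higher at 2 dyn/cm², and its difference of 0.31 ± 0.05 at 30 dyn/cm² went to 0.00 with library totals. Bnip3 was higher by 0.30 ± 0.12 at 30 dyn/cm², which was lost without orpk replicate 1 (0.25) or 2 (0.26) or WT replicate 3 (0.27) at that shear and turned to -0.01 with library totals.

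Scaling by library totals moved the median of all tested genes by 0.11 in WT and 0.10 in orpk cells at 2 dyn/cm², by -0.12 for the orpk step from 2 to 30 dyn/cm², and by -0.22, -0.22 and -0.31 between genotypes in static culture, at 2 and at 30 dyn/cm². The shares of all genes called lower and higher were then 22.3% and 43.1% in WT cells at 2 dyn/cm², 26.7% and 41.3% at 30 dyn/cm², 22.8% and 41.1% in orpk cells at 2 dyn/cm², and 42.5% and 22.3% for the orpk step. Between genotypes they were 51.8% and 36.5%, 52.3% and 35.8%, and 54.7% and 34.2% in the same order of conditions. For the difference between genotypes they were 33.6% and 25.1% at 30 dyn/cm² against static culture and 28.8% and 18.3% for the step.

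**Figure D5:**
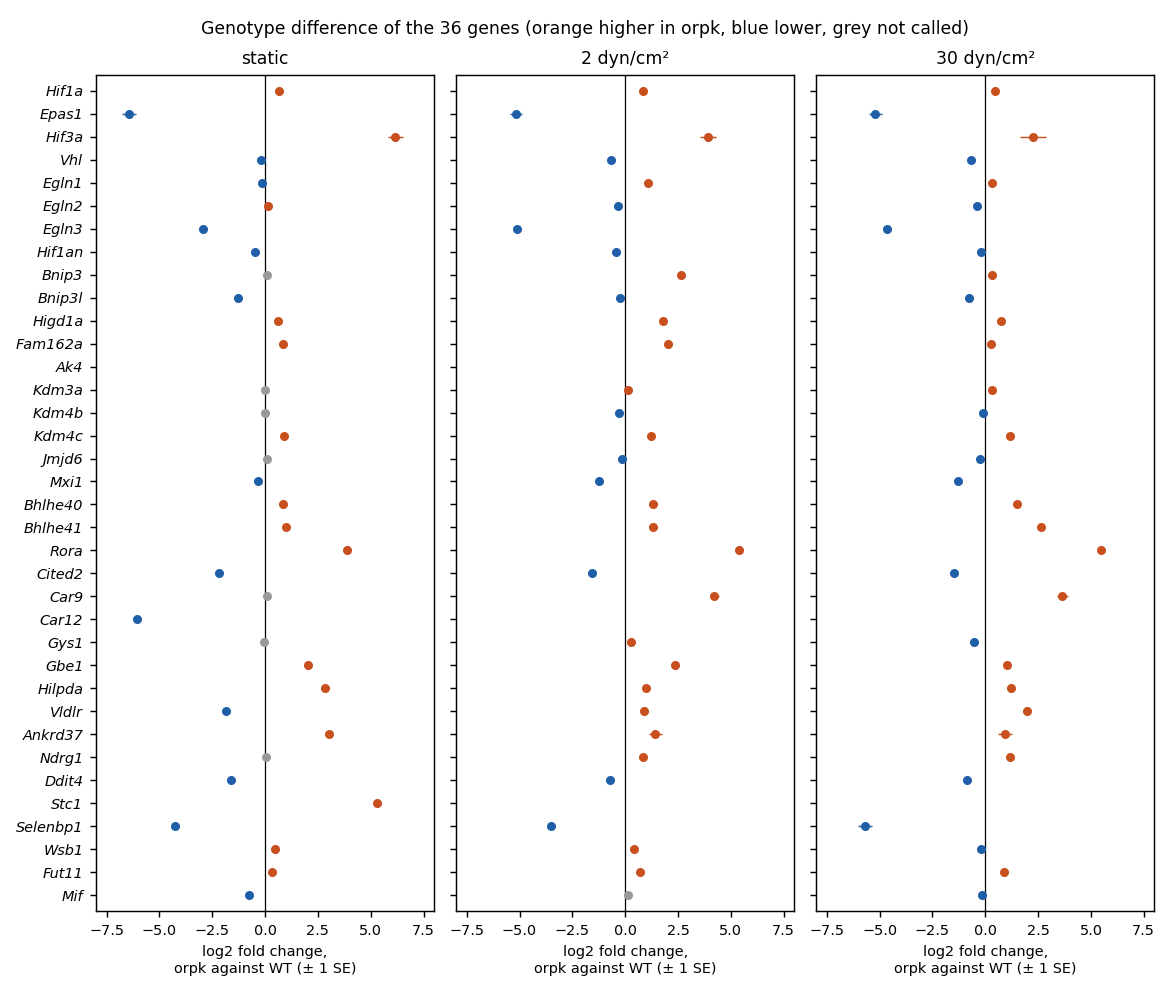
Log2 fold change of orpk against WT cells (x axis, bars ± 1 SE) for each gene in static culture, at 2 and at 30 dyn/cm²; orange is higher and blue lower in orpk cells, grey did not pass. The 7 grey genes of static culture include Bnip3 and Car9, which move to 2.64 and 4.21 at 2 dyn/cm². Values resting on a group of at most 3 reads (Ak4, and Car12 and Stc1 under shear) are left out.

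By CPM per kb of exon, the scale on which genes may be compared, Fam162a was the highest member in static culture of both genotypes, at 391 ± 6.7 (SD, n = 3) in WT and 702 ± 30.6 in orpk cells. Ddit4 was second in WT cells at 281 ± 16.5, followed by Mif at 162 ± 7.75 and Ndrg1 at 133 ± 6.62. In orpk cells Ndrg1 at 136 ± 2.6, Hilpda at 127 ± 1.35 and Hif1a at 103 ± 5.99 followed. In WT cells the SD range of Ndrg1 overlapped those of Cited2 (126 ± 8.68) and Egln3 (121 ± 7.81). In orpk cells that of Hif1a overlapped those of Egln1 (98.9 ± 4.16), Mif (95.5 ± 6.76) and Wsb1 (91.1 ± 6.54), so the order among these is not resolved.

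Of the other genes of the pathway, hypoxia-induced and glycolysis genes mostly fell, while the partners of HIF fell or rose at shares nearer to those of all tested genes. These were, for lower and higher, 30.3% and 32.6% in WT cells at 2 dyn/cm², 32.7% and 34.1% at 30 dyn/cm², 31.1% and 30.9% in orpk cells at 2 dyn/cm² and 33.3% and 36.5% at 30 dyn/cm². Of 18 HIF partners and turnover genes (ARNT, coactivators, ligase parts and chaperones), 4 fell and 6 rose in WT cells at 2 dyn/cm², 5 and 6 at 30 dyn/cm², 4 and 7 in orpk cells at 2 dyn/cm² and 4 and 9 at 30 dyn/cm², which is 22.2% to 27.8% lower and 33.3% to 50% higher. Their medians lay between 0.04 and 0.14 on the log2 scale. Siah2, a ligase that degrades prolyl hydroxylases, fell in WT cells at 2 (-0.84) and 30 dyn/cm² (-0.67). In orpk cells Siah2 was not called at 2 dyn/cm² (-0.13) and rose at 30 dyn/cm² (0.85). Arnt2, also of this list, was not called in WT cells at 2 dyn/cm² (0.32). It fell there at 30 dyn/cm² (-2.45), from a mean of 0.554 to 0.0952 CPM. In orpk cells Arnt2 rose at 2 (0.70) and 30 dyn/cm² (0.61), and in static culture it was higher than in WT cells (6.21). Of 21 other hypoxia-induced genes tested, 16, 14, 15 and 14 fell in the same order of comparisons and 3, 5, 3 and 6 rose, with medians of -1.41, -1.27, -1.25 and -1.13. Vegfa, the main angiogenic growth factor, fell at 2 dyn/cm² in WT (-2.90) and orpk cells (-1.92). Angptl4, a lipoprotein lipase inhibitor induced by both HIF and PPARs, rose at 2 dyn/cm² by 5.22 in WT and 6.26 in orpk cells. Of 21 glycolysis genes, 20, 20, 20 and 19 fell and 1 rose, in orpk cells at 30 dyn/cm², with medians of -2.18, -2.22, -1.24 and -1.84. The genotypes also differed in the marker genes given above, whose part in these differences was not tested.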

How the data were processed

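Poly(A) RNA of 18 libraries (3 in each of 6 groups) was prepared with a stranded kit and read from one end, per the labels' protocols. CASAVA 1.8.2, STAR 2.4 and featureCounts 1.4.6 are named in the submitters' processing notes, with the mouse build GRCm38. The values deposited are whole-number read counts per gene that the authors did not normalize. The strand setting, the treatment of reads with several matches and the annotation are not given in the sources used here.

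From these counts, 13058 of 21647 genes passed edgeR's filterByExpr, and all 18 libraries were fitted together with edgeR 4.0.16 in R 4.3.3 (TMM scaling, quasi-likelihood test, 12 residual degrees of freedom). Adjusted p-values are Benjamini-Hochberg over all tested genes, called at 0.05. Library totals ran from 13626480 to 17387553 counts. CPM values use the TMM scaling. Where a group held at most 3 reads, ratios carry a 95% exact counting interval or take 3 reads in the group as the floor, and both cover counting error only. The fit was tested on simulated data, but no outcome of that test is given here.

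Per-library values are given for the HIF subunits, the sensors and each member with an adjusted p under 0.05 and a log2 change of at least 1 in a shear or genotype comparison. Differences between genotypes are given where they passed the test and were at least 1 in size. Some smaller differences are given as well, but not every one that was called. Up to 4 genes of each other list are named, and these are not always the ones with the largest change. The 36 members and the other lists were chosen with earlier results of these data known. Alternatives were DESeq2 1.42.0, RLE and library-total scaling, no filter, a replicate block, the compared groups alone and leaving out each library. The median with genes of few reads at their bound, and the promoters of tested genes as a comparison set, were chosen after seeing the data.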

Additional observations from a re-analysis of the deposited data

Results flagged for a closer look

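The shear response of 16 of the 36 genes differed between genotypes by at least 1 on the log2 scale, and each of these differences (orpk minus WT) passed edgeR's test of the difference itself. Over all tested genes such differences made up 4.45% (positive) and 3.38% (negative) at 2 dyn/cm², 6.17% and 6.29% at 30 dyn/cm², and 2.5% and 3.59% for the step between them. These shares are for each comparison and direction, while the count of 16 joins all of them. The like count over all tested genes was not made. At 2 dyn/cm² against static culture the positive values were those of Car9 (4.14), Vldlr (2.77), Bnip3 (2.57), Rora (1.52), Egln1 (1.23), Fam162a (1.18) and Higd1a (1.15). The negative values were those of Car12 (-3.19), Hif3a (-2.26), Egln3 (-2.19), Hilpda (-1.86) and Ankrd37 (-1.60). At 30 dyn/cm² against static culture the positive values were those of Vldlr (3.83), Car9 (3.58), Bhlhe41 (1.66), Rora (1.57) and Ndrg1 (1.16). The negative values were those of Hif3a (-3.89), Car12 (-2.19), Ankrd37 (-2.09), Egln3 (-1.72), Hilpda (-1.61), Selenbp1 (-1.41) and Gbe1 (-1.04). From 2 to 30 dyn/cm² the values were -2.34 for Bnip3, -2.18 for Selenbp1, -1.78 for Fam162a, -1.33 for Gbe1, -1.03 for Higd1a, 1.31 for Bhlhe41 and 1.07 for Vldlr. The fitted values of Car12 depend on the prior count, since its sheared orpk groups held 2 and 3 reads. Both calls of Hif3a, and those of Car12 and Selenbp1 at 30 dyn/cm² against static culture, were each lost in at least 1 fit without a single library. The comparisons against static culture share the static libraries.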

How the results depend on the processing

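With library totals as the scaling, the members that rose numbered 2 (Hif1an and Kdm4c) instead of 1 in orpk cells at 2 dyn/cm², 5 instead of 10 for the orpk step from 2 to 30 dyn/cm², and the positive differences of that step 5 instead of 8. Under the same scaling the difference of orpk against WT turned to -0.14 for Bnip3, -0.14 for Jmjd6, -0.21 for Kdm3a, -0.18 for Ndrg1 and -0.0926 for Egln2 in static culture, to -0.10 for Kdm3a at 2 dyn/cm², and to -0.0114 for Bnip3, -0.0668 for Fam162a and 0 for Egln1 at 30 dyn/cm². The orpk step of Ndrg1 turned to -0.0066. The cause was not tested. Under every other alternative run (DESeq2, RLE, no filter, compared groups only, replicate block, leaving out a library) the member counts stayed within 1.5 times. Leaving out a library moved the members that fell in the orpk step between 14 and 17 and those that rose between 8 and 10. The WT step gave 9 to 12 and 3 to 4. In static culture the members higher in orpk cells ran from 15 to 18. Same-numbered libraries of different groups did not deviate together: none of 45 pairs had a correlation over 0.1 (range -0.0524 to 0.055), and 16 correlated best with their own number. With the replicate block the positive differences of the step numbered 7 and the members higher in orpk cells at 2 dyn/cm² numbered 23. Depth limits the values that rest on a group of at most 3 reads.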
